A study of Mus musculus with 15 samples.

Results

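The knockout effect that 2 ways of deleting Atf4 have in common was measured by RNA-seq in ventricles of mouse embryos at embryonic day 11.5. All 15 libraries of the series were used, 8 knockouts and 7 controls, and the change between them was fitted with the line of origin as a covariate. In the line called CDS, Atf4fl(CDS)/fl(CDS) animals carry loxP sites on either side of exons 2 and 3 and keep the polyadenylation signal. In the line called PAS, Atf4fl(PAS)/fl(PAS) animals carry loxP sites around that signal. Knockouts of both lines come from crosses to Xmlc2-Cre, which restricts deletion to cardiomyocytes per the labels, so the other cells of the ventricle keep the gene. There were 4 CDS knockouts, 4 CDS controls, 4 PAS knockouts and 3 PAS controls, all of strain C57BL/6, untreated and with batch label 1. The labels do not say which alleles the controls carry. If the controls lack Cre, an effect of Cre itself cannot be told apart from one of the deletions, and this was not tested. The extraction protocol in the labels speaks of cultured cortical neurons, against the tissue label and the design text. All 8 cardiomyocyte markers looked at were abundant, with a summed level of 26200 to 29900 CPM in CDS knockouts, 28900 to 31700 CPM in CDS controls, 29800 to 30400 CPM in PAS knockouts and 29400 to 31100 CPM in PAS controls. All 8 had a negative log2 change over both lines, with a median of -0.04 (-0.09 for CDS and -0.02 for PAS), and 0 passed the test. Tnnt2 and Actc1, which code for cardiac troponin T and cardiac actin, were lower at an unadjusted p under 0.05, at -0.11 ± 0.05 and -0.09 ± 0.04 (log2, SE). The part of these changes in the results below was not tested. CPM is the count of a gene relative to the scaled total of its library. The 9 neuron markers tested summed to 43.2 to 55.6 CPM in CDS knockouts and 37.4 to 47.2 CPM in CDS controls. The sums were 42.5 to 46.3 CPM in PAS knockouts and 42 to 46.2 CPM in PAS controls.

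ATF4 is the main transcription factor of the integrated stress response. It is translated when the initiation factor eIF2 is phosphorylated, for example when amino acids are short. It then switches on genes that load tRNAs, make serine, glycine, asparagine and proline, supply one-carbon units and import amino acids. It binds composite sites in which a C/EBP element and an ATF element are joined. p53, another stress-activated factor, switches on inhibitors of the cell cycle and genes of cell death.

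The CDS libraries held 30376847 to 46472141 counts and the PAS libraries 22623499 to 29315724, so every CDS library was deeper than every PAS library. CDS knockout 3 stood apart from its replicates: the chi-square per degree of freedom between counts was 48.2 to 62.1 in its 3 pairs and 12.6 or less in the other 18 pairs within groups. Without that library 16 genes passed the test described below, all 15 of the full set and Aldh1l2, and the 7 called in neither line were the same. Atf4 (ENSMUSG00000042406.9, chromosome 15 from 80139385 to 80141742, plus strand, GRCm39) was at 39.6, 48.1, 45.3 and 45.0 CPM in CDS knockouts 1 to 4 and at 114, 112, 116 and 115 CPM in CDS controls. It was at 304, 292, 288 and 259 CPM in PAS knockouts and at 98.9, 92.2 and 100 CPM in PAS controls. The targeted gene was thus lower under one knockout label and higher under the other. It was the 1 gene to pass the test of a difference between the lines, 0.00493% of those tested (PAS minus CDS log2 change 2.92, adjusted p = 3.88e-17 by edgeR). Genes that missed that threshold can still differ. Rps19bp1 missed it by edgeR (adjusted p = 0.077) and passed by DESeq2 (0.000501), and Cacna1i was nearly absent outside the CDS knockouts. The Atf4 counts cover the whole gene and do not show which exons were read. Directions below are those of the libraries so labelled, and no common change is given for Atf4 itself.

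With both lines together, 15 of 20269 genes passed the test, 11 lower and 4 higher in knockouts, which is 0.0740% of genes tested (0.0543% lower and 0.0197% higher; quasi-likelihood F test of edgeR, with Benjamini-Hochberg adjustment to 0.05). All 11 genes that fell serve amino acid supply or translation. Cars, Yars, Iars, Aars, Mars and Nars code for cytosolic aminoacyl-tRNA synthetases, which load amino acids onto tRNAs. Phgdh and Mthfd2 code for enzymes of serine and one-carbon synthesis, Pycr1 and Aldh18a1 for enzymes of proline synthesis, and Eif2s2 for the beta subunit of eIF2. The 4 genes that rose were Cdkn1a, the gene of p21, which halts the cell cycle, Eda2r, a receptor of the tumour necrosis factor receptor family, 1810010H24Rik and the calcium channel gene Cacna1i. At an unadjusted p under 0.05 there were 340 lower and 323 higher genes, 1.68% and 1.59% of those tested. Together these 663 genes are fewer than that threshold would mark among 20269 genes if none changed.

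Of these 15 genes, 7 had an adjusted p of 0.05 or more in each line by itself and the same direction in both, which is 0.0345% of genes tested. They were Mars, Pycr1, Mthfd2, Aldh18a1 and Eif2s2, lower, and Cdkn1a and Eda2r, higher. Within the CDS line their adjusted p lay between 0.0559 and 0.133, and within PAS between 0.311 and 0.934, by edgeR on the spread shared by all 15 libraries. That these 7 passed in neither line holds for this fit and not for every tool. DESeq2 called all 7 in the CDS line (adjusted p from 0.000818 to 0.0107) and Mars in the PAS line (0.0275), and with the CDS line fitted alone by edgeR Pycr1 and Aldh18a1 passed (0.0243 and 0.0124). The other 8 passed in the CDS line as well, and of these Cars passed in both lines on the shared spread. With the PAS line fitted alone by edgeR, Cars missed the threshold there (adjusted p = 0.116). In all, 11 genes passed within CDS (0.0543%) and 2 within PAS (0.00987%). The genes nearest the threshold on the inner side were Eda2r, Aldh18a1 and Eif2s2, with adjusted p of 0.0153, 0.0172 and 0.0172, and on the outer side Aamp, Aldh1l2 and Gars, with 0.153, 0.168 and 0.201.

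**Figure D1:**
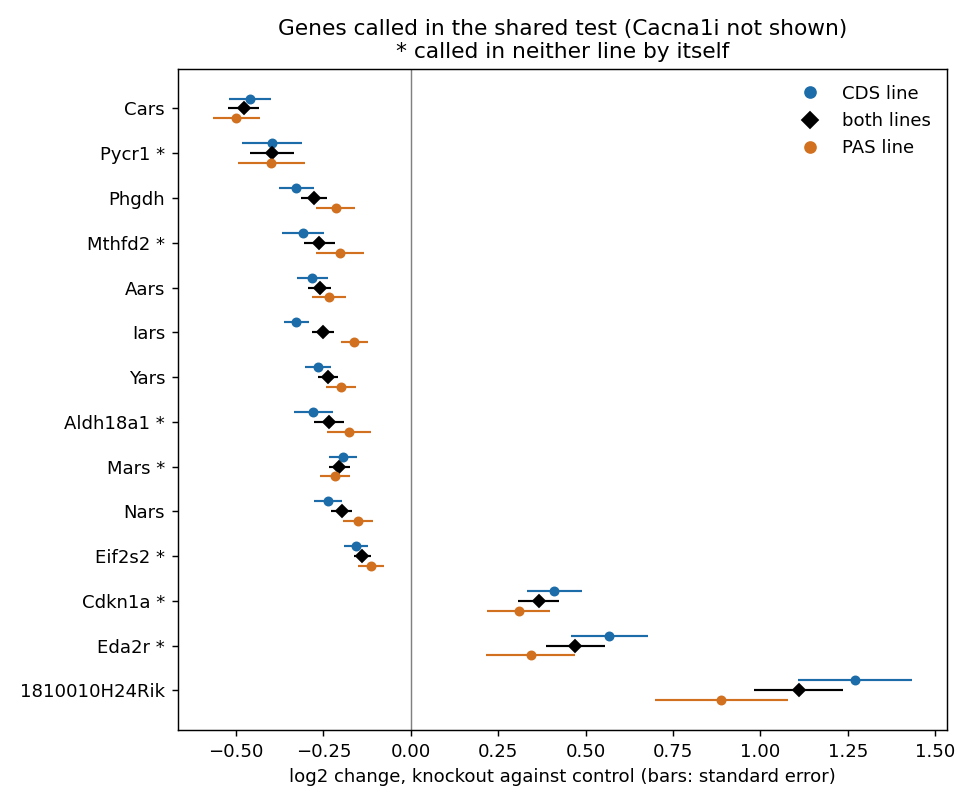
Log2 change of knockout against control on the horizontal axis for 14 of the 15 genes called with both lines together, with Cacna1i left out because it was nearly absent outside the CDS knockouts. Blue points are the CDS line, orange points the PAS line and black diamonds both lines, with bars of 1 standard error, and asterisks mark the 7 genes called in neither line by edgeR on the shared spread (DESeq2 called all 7 in the CDS line). In each gene the blue and orange points lie on the same side of 0. For the 7 marked genes the selection required this, and for the others calling on both lines together favours it.

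Mars (ENSMUSG00000040354.15, chromosome 10 from 127132090 to 127147655, minus strand, GRCm39) codes for the methionine tRNA synthetase, whose product also feeds translation initiation. It was at 60.6, 61.0, 59.1 and 65.2 CPM in CDS knockouts and at 71.9, 69.6, 69.8 and 69.9 CPM in CDS controls. PAS knockouts had 60.9, 59.4, 59.2 and 63.8 CPM, and PAS controls 71.0, 73.4 and 67.5 CPM. Every knockout lay below every control of its line. Over both lines Mars fell to 0.868 of control (log2 -0.20 ± 0.03, SE over 8 knockouts and 7 controls; edgeR adjusted p = 0.00073), with changes of -0.19 ± 0.04 for CDS and -0.22 ± 0.04 for PAS (log2, SE; p of the difference = 0.707). Its exons overlap those of Ddit3 on the other strand, which had 373 counts per library on average, and the counting did not separate strands. The genes share only the stretch from 127132090 to 127132157, where Ddit3 ends.

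Pycr1 (ENSMUSG00000025140.16, chromosome 11 from 120526538 to 120534595, minus strand) codes for a mitochondrial reductase that completes proline synthesis. It was at 12.5, 11.9, 12.3 and 11.9 CPM in CDS knockouts and at 17.8, 15.2, 15.8 and 15.2 CPM in CDS controls. Among PAS animals it stood at 14.6, 11.1, 10.3 and 12.3 CPM in knockouts, against 15, 15.6 and 17.2 CPM in controls. No knockout reached a control of its line, and the nearest approach was that of PAS knockout 1 to PAS control 1. Pycr1 fell to 0.759 of control (log2 -0.40 ± 0.06, SE; edgeR adjusted p = 0.00301), with -0.40 ± 0.09 for CDS and -0.40 ± 0.10 for PAS (log2, SE).

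Aldh18a1 (ENSMUSG00000025007.14, chromosome 19 from 40538701 to 40576907, minus strand) codes for the enzyme that starts proline synthesis from glutamate. It was at 49.4, 46.9, 47.9 and 45.5 CPM in CDS knockouts and at 58.6, 54.1, 56.7 and 60.8 CPM in CDS controls. For PAS the values were 52.4, 42.1, 48.8 and 45.7 CPM in knockouts, with 52.7, 57.5 and 50.1 CPM in controls. The groups did not overlap in the CDS line, whereas PAS knockout 1 lay above PAS control 3. Aldh18a1 fell to 0.851 of control (log2 -0.23 ± 0.04, SE; edgeR adjusted p = 0.0172). That call was lost without CDS knockout 2 (adjusted p = 0.0697) or 4 (0.0646), CDS control 1 (0.0547) or 4 (0.0653), PAS knockout 4 (0.0571) or PAS control 2 (0.069).

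Mthfd2 (ENSMUSG00000005667.9, chromosome 6 from 83282673 to 83302890, minus strand) codes for a mitochondrial folate enzyme that is active in embryonic and dividing cells. It was at 30.4, 33.4, 27.5 and 32.8 CPM in CDS knockouts and at 41.3, 37.9, 37 and 37.3 CPM in CDS controls. PAS knockouts had 29.6, 28.6, 31.5 and 27.4 CPM, and PAS controls 31.9, 33.7 and 35.4 CPM. The knockouts lay below the controls in both lines, and the controls of the PAS line were themselves lower than those of the CDS line. Mthfd2 fell to 0.835 of control (log2 -0.26 ± 0.05, SE; edgeR adjusted p = 0.0101).

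Eif2s2 (ENSMUSG00000074656.14, chromosome 2 from 154713330 to 154734855, minus strand) changed least of the 15 genes. It was at 141, 144, 143 and 150 CPM in CDS knockouts and at 161, 165, 158 and 161 CPM in CDS controls. Among PAS animals it stood at 151, 152, 155 and 153 CPM in knockouts, against 166, 160 and 169 CPM in controls. All knockouts lay below all controls, in both lines. Eif2s2 fell to 0.909 of control (log2 -0.14 ± 0.03, SE; edgeR adjusted p = 0.0172), and the call was lost without CDS knockout 1 (adjusted p = 0.085) or 2 (0.0697), CDS control 4 (0.0579) or PAS control 3 (0.0507). Near-identical copies, such as processed pseudogenes, could share its reads, and how those were split is not given in the sources used here.

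Cdkn1a (ENSMUSG00000023067.15, chromosome 17 from 29309950 to 29319701, plus strand) is a much-used readout of p53 activity. It was at 27.6, 25.7, 27.8 and 24.4 CPM in CDS knockouts and at 20.2, 18.2, 23.2 and 17.9 CPM in CDS controls. For PAS the values were 24.1, 25.2, 28.6 and 22.6 CPM in knockouts, with 18.9, 20.7 and 21.3 CPM in controls. Every knockout lay above every control in both lines. Cdkn1a rose to 1.29 times control (log2 0.37 ± 0.06, SE; edgeR adjusted p = 0.00436), with 0.41 ± 0.08 for CDS and 0.31 ± 0.09 for PAS (log2, SE; p of the difference = 0.406).

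Eda2r (ENSMUSG00000034457.11, chromosome X from 96377446 to 96420822, minus strand) codes for a receptor of the ligand ectodysplasin A2 and is known as a p53 target. It was at 8.82, 10.9, 12.6 and 9.3 CPM in CDS knockouts and at 7.18, 6.36, 7.44 and 7.09 CPM in CDS controls. PAS knockouts had 7.32, 9.77, 8.21 and 9.49 CPM, and PAS controls 7.4, 6.47 and 6.71 CPM. The groups were apart in the CDS line, whereas PAS knockout 1 lay just under PAS control 1. Eda2r rose to 1.39 times control (log2 0.47 ± 0.08, SE; edgeR adjusted p = 0.0153), a call lost without CDS knockout 2 (adjusted p = 0.0693), CDS control 2 (0.0529) or CDS control 4 (0.0635).

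**Figure D2:**
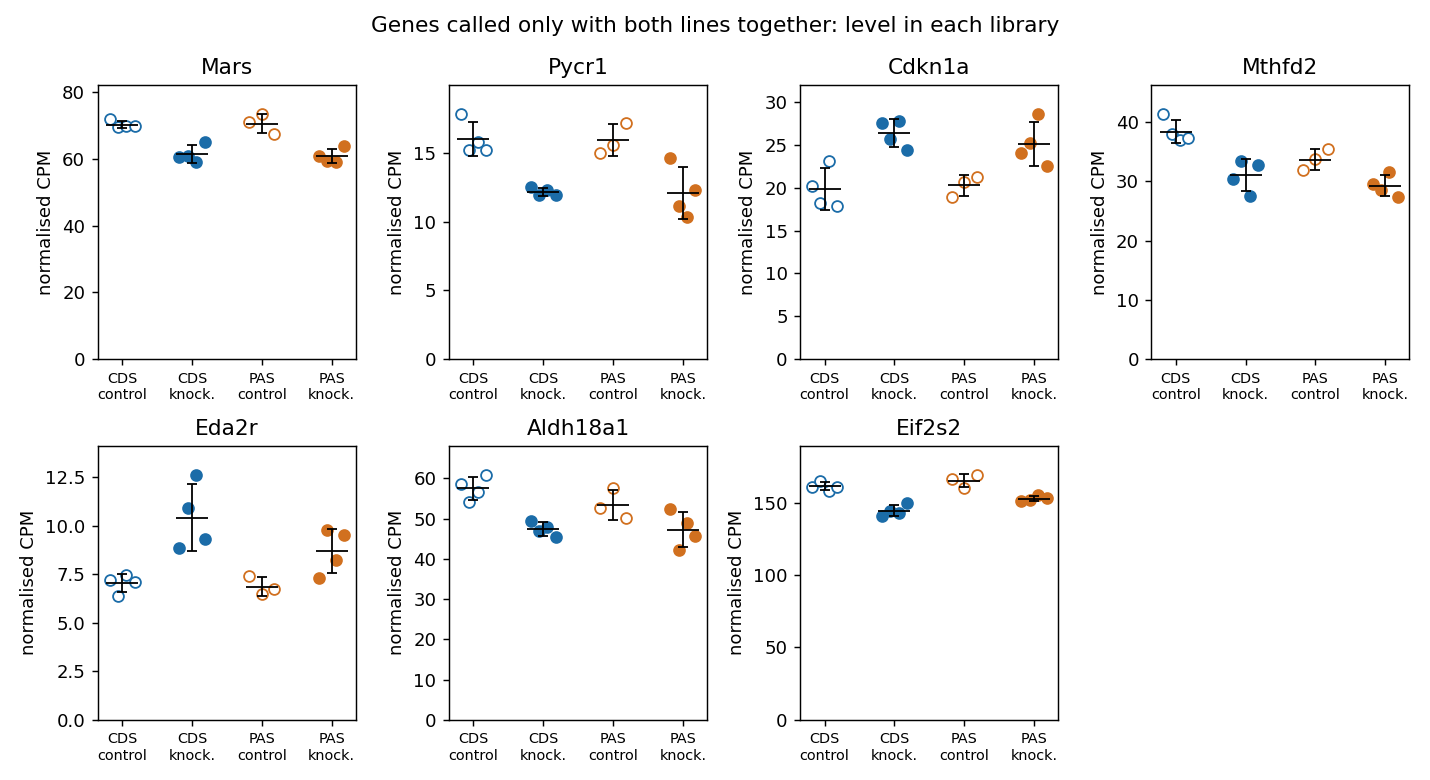
Normalised CPM in each library on the vertical axis, from 0, for the 7 genes called with both lines together and in neither line by edgeR on the shared spread. Open points are controls, filled points knockouts, blue the CDS line and orange the PAS line, with bars for the mean and SD of each group (n = 4, 4, 3 and 4 from left to right); knockouts and controls overlap in Eda2r and Aldh18a1 of the PAS line.

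Cacna1i had too few counts in the PAS line to read a direction. The other genes that passed in the CDS line as well had the same direction in the PAS line, which calling over both lines favours. Cars, for the cysteine tRNA synthetase, was the most changed of the lower genes, at 20.7, 20.7, 22.5 and 22.6 CPM in CDS knockouts against 29.7, 28.1, 29.4 and 31.4 CPM in CDS controls. PAS knockouts had Cars at 21.5, 20.4, 19 and 22.3 CPM, against 27.2, 29.5 and 31.6 CPM in PAS controls. The groups were far apart in both lines, and Cars fell to 0.718 of control over both (log2 -0.48 ± 0.04, SE; edgeR adjusted p = 1.23e-06). Aars, for the alanine enzyme, was at 104, 107, 105 and 111 CPM in CDS knockouts against 132, 122, 130 and 136 CPM in CDS controls, and at 119, 104, 113 and 110 CPM in PAS knockouts against 136, 135 and 123 CPM in PAS controls. Iars, for isoleucine, was at 129, 134, 134 and 129 CPM in CDS knockouts against 171, 161, 160 and 168 CPM in controls, and at 148, 139, 142 and 143 CPM in PAS knockouts against 160, 162 and 158 CPM. Neither gene overlapped between knockouts and controls in either line, nor did Yars (tyrosine), Nars (asparagine) or Phgdh. Yars lay at 52 to 56.3 CPM in CDS knockouts and 62.5 to 66.6 CPM in CDS controls, and at 54.1 to 57 CPM in PAS knockouts and 62.3 to 65.2 CPM in PAS controls. Nars lay at 102 to 110 CPM against 121 to 129 CPM for CDS, and at 105 to 115 CPM against 117 to 128 CPM for PAS. Aars, Iars and Yars fell to 0.835, 0.84 and 0.849 of control, and Nars to 0.872, with adjusted p from 8.31e-05 to 0.00182 (edgeR). Exons of Yars overlap those of C77080, with 190 counts per library on average, and those of Aldh18a1 the exons of Gm27042, with 103. Phgdh, whose enzyme takes the first step from glycolysis into serine, fell to 0.825 of control (adjusted p = 0.000444, edgeR), from 59.5 ± 2.72 to 47.5 ± 3.27 CPM (SD, n = 4 each) for CDS, and for PAS from 56.4 ± 3.46 (SD, n = 3) to 48.6 ± 1.39 CPM (SD, n = 4). Iars was the lower gene whose changes differed most between the lines, -0.33 ± 0.04 against -0.16 ± 0.04 (log2, SE; unadjusted p of the difference = 0.00444, adjusted p = 0.995, edgeR). The CDS change was the larger one in 11 of the 14 genes other than Cacna1i, and for 1 of the 14 the difference between lines had an unadjusted p under 0.05.

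Promoters of the called genes are shown because the lower genes moved together and ATF4 is known to bind C/EBP-ATF sites in such promoters. The motif searched was TGATGNAA on either strand, in windows from 250 bases before to 50 after the annotated start (RefSeq, build GRCm38.p6). Of the 11 lower genes 9 had a window, and 4 of the 9 held the motif (44.4%): Aars, Iars, Yars and Pycr1. Of 12412 tested genes with a window, 342 held it (2.76%), as did 3.97% of all 32851 windows in the table. Of the 5 lower genes called in neither line, all had a window and 1, Pycr1, held the motif. The motif was not limited to called genes of these pathways. It also lay in windows of Gars, Tars, Asns, Slc1a4 and Jdp2, which were lower at an unadjusted p under 0.05 (edgeR). Other holders did not reach that p. These were Got1, Atf3, Trib3 and Slc7a11 (log2 -0.01, -0.03, -0.09 and -0.12), and Vldlr, Herpud1, Chac1 and Eif2s3x (-0.07, -0.08, -0.58 and -0.01). Sars, Slc3a2, Atf5 and others had a window without it. All 4 higher genes had a window, and 0 held the motif. A match is a description of these letters, and 0 matches says nothing of sites outside the window. The windows below are written in the direction of the gene with the motif in capitals.
Aars: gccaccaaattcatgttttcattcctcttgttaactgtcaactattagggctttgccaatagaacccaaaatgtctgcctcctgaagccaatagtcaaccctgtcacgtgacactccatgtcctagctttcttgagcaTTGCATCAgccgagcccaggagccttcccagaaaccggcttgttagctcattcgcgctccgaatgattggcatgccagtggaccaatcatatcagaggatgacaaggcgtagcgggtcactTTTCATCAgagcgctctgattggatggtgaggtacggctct
Iars: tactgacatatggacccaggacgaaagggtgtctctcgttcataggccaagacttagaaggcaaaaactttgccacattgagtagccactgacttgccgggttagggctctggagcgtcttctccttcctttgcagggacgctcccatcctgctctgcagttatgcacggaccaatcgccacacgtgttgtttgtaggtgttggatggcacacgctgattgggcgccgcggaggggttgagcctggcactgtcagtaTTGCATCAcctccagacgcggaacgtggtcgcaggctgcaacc
Yars: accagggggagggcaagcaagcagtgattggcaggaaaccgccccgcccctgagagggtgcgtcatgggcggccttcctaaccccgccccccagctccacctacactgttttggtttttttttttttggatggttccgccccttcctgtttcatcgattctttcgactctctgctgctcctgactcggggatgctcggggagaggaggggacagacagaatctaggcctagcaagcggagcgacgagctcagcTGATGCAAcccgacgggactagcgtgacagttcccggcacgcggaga
Pycr1: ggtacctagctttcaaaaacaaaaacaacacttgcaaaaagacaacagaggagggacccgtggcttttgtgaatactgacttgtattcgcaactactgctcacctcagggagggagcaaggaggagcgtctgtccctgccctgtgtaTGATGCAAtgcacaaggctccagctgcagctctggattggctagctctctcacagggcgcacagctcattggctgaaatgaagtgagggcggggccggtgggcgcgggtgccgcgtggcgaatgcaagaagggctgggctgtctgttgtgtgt
They lie at chr8:111033592-111033891 (plus strand), chr13:49681880-49682179 (plus strand), chr4:129189653-129189952 (plus strand) and chr11:120643699-120643998 (minus strand) on GRCm38.p6. Counted from the annotated start as 1, the first base of the match is at 4 in Yars, at 8 in Iars, at -112 and 10 in Aars and at -103 in Pycr1. TGATGCAA is the form in Yars and Pycr1, and Iars and the upstream match of Aars carry its reverse complement, TTGCATCA.

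Averaged over the 11 lower genes, the log2 ratio to the control mean of the same line was -0.32, -0.30, -0.31 and -0.25 in CDS knockouts 1 to 4. In PAS knockouts 1 to 4 it was -0.18, -0.28, -0.25 and -0.23, while the 7 controls lay between -0.03 and 0.04. Even the highest knockout, PAS 1, lay below the lowest control. The genes were chosen on these libraries, so the distance is a description and not a test.

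Of the 4 higher genes, 1810010H24Rik (ENSMUSG00000078607.7, chromosome 11 from 106916507 to 106921269, plus strand) had the largest change apart from Cacna1i, and its knockouts were the higher ones in both lines. It was at 2.96, 3.5, 2.97 and 2.94 CPM in CDS knockouts and at 1.2, 1.32, 1.53 and 1.1 CPM in CDS controls. Among PAS animals it stood at 3.36, 2.74, 2.88 and 2.15 CPM in knockouts, against 1.47, 1.75 and 1.27 CPM in controls. There was no overlap, and over both lines it rose to 2.16 times control (log2 1.11 ± 0.13, SE; edgeR adjusted p = 4.81e-05). Cacna1i (ENSMUSG00000022416.16, chromosome 15 from 80171439 to 80282480, plus strand), which lies downstream of Atf4 on the same strand, passed the same test without being a change of both lines. It had 268, 307, 240 and 193 counts in CDS knockouts and 0, 1, 1 and 3 in CDS controls, but 0, 0, 2 and 3 in the knockouts of the PAS line and 0, 0 and 1 in its controls. The call therefore rests on the CDS line, and no fold over both lines is given. The 2 genes that passed in the CDS line beside Atf4 and not over both lines were Aldh1l2 and Rps19bp1. Aldh1l2, for a mitochondrial folate enzyme, was at 0.803 of control over both lines (log2 -0.32 ± 0.06, SE; edgeR adjusted p = 0.168) with changes of -0.45 ± 0.06 for CDS and -0.15 ± 0.07 for PAS. It passed over both lines without CDS knockout 3 (adjusted p = 0.0371) and in 7 of 24 settings in all. Rps19bp1, a neighbour of Atf4, stood at -0.62 ± 0.08 for CDS, where it fell, and at 0.11 ± 0.09 for PAS (log2, SE).

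Knockouts and controls did not overlap in the CDS line for 15 of the 15 called genes, beside 2.80% of all genes tested, and in the PAS line for 12, beside 4.59%. Those 12 were apart in both lines. The genes were called on these same libraries, so their separation is a description and no further support. Among all genes tested, 19 had every knockout below every control of its line in both lines (0.0937%) and 6 had every knockout above (0.0296%). Of these 25 genes, 10 of the lower and 2 of the higher were among the called.

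Because the lines share no library, each can be read against genes chosen in the other. When the CDS line was fitted alone, 12 of 19345 genes passed (0.0620%), and 11 of them could be tested in the PAS line alone. The gene left out was Cacna1i, which had too few counts in the PAS line for a test there. In the PAS line 9 of these 11 had the same sign and an unadjusted p under 0.05: Cars, 1810010H24Rik, Yars, Iars, Aars, Phgdh, Nars, Pycr1 and Aldh18a1. Over the 18321 genes tested in both lines that held for 1.27%. The other 2 were Atf4, which went the opposite way, and Rps19bp1 (edgeR adjusted p = 1). Pycr1 and Aldh18a1, which are among the 7 genes above, are thus in this count because they passed when the CDS line supplied its own spread.

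Read the other way, 36 genes were lower in the PAS line alone at an unadjusted p under 0.01, and 10 of them were lower with p under 0.05 in the CDS line alone, against 2.06% of all genes with the same sign and such a p. Of 28 genes higher in the PAS line at that level, 3 were higher in the CDS line with p under 0.05, and 3 were lower. From the CDS side, 15 of 80 lower genes and 3 of 76 higher genes carried over to the PAS line. The lower genes chosen in either line thus recurred at 18.8% and 27.8%, and the higher genes at 3.95% and 10.7%. Across all 18321 genes the changes of the 2 lines showed next to no relation (Pearson r = -0.03, Spearman rho = -0.04), and the same held for the 9912 genes with a CDS control mean of at least 10 CPM (-0.12 and -0.05). Those correlations are across genes, which are not independent replicates, and the lines share no library and differ in depth.

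**Figure D3:**
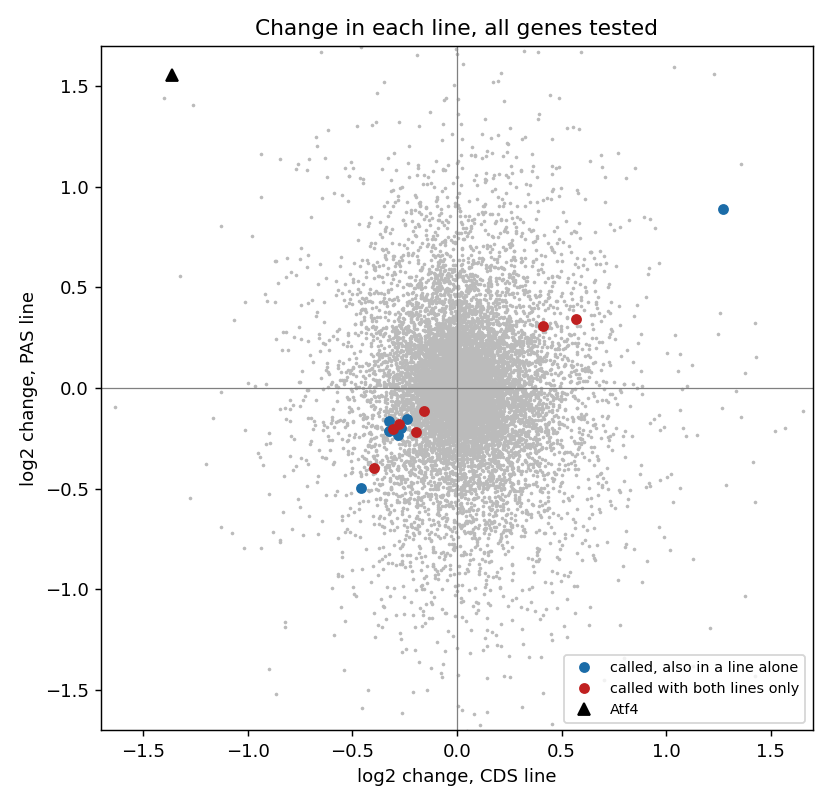
Log2 change of each gene tested in the CDS line (horizontal) and the PAS line (vertical), with axes limited to 1.7 either way, which leaves 46 genes outside. Red points are the 7 genes called by that fit with both lines together alone, blue points the other called genes except Cacna1i. The triangle is Atf4 and grey points are the rest, whose cloud shows no slope. Red points lie in the quadrants of equal sign because equal sign was required of them. Blue points lie there too, but they were called on the change over both lines, which favours equal sign.

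Genes of the same pathways that did not pass were read from lists, beside all genes tested, of which 50.5% had a negative log2 change and whose median change was 0.00. Among 21 cytosolic aminoacyl-tRNA synthetases, 18 were negative, 6 fell and 0 rose, and 10 were lower at an unadjusted p under 0.05 (median log2 change -0.04). Gars, Lars, Tars and Sars, for glycine, leucine, threonine and serine, made up the difference, with log2 changes of -0.16 ± 0.04, -0.11 ± 0.03, -0.10 ± 0.03 and -0.07 ± 0.03 (SE) and adjusted p of 0.201 or more (edgeR). The 17 mitochondrial synthetases had 5 negative and 12 positive changes, and 0 were called or had p under 0.05. Their most abundant members per length were Lars2 and Iars2, at log2 changes of 0.83 ± 0.43 and -0.04 ± 0.03 (SE). For Lars2 the third CDS knockout held 3690 CPM, and every remaining library 274 to 1100 CPM.

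Of 15 genes of serine and one-carbon synthesis 11 were negative, 2 fell (Phgdh and Mthfd2) and 0 rose. Of 13 enzymes of asparagine, proline and glutamate 10 were negative, 2 fell (Pycr1 and Aldh18a1) and 0 rose. At an unadjusted p under 0.05, 3 of these 13 were lower and 0 higher. Asns, the asparagine synthetase and a classical ATF4 target, was at 0.825 of control (log2 -0.28 ± 0.07, SE). Its unadjusted p was 0.00133 and its adjusted p 0.96 (edgeR). The change of Asns was -0.21 ± 0.10 for CDS and -0.36 ± 0.11 for PAS (log2, SE). Of 14 amino acid transporters 9 were negative and 0 passed, and 5 had an unadjusted p under 0.05, all lower. These were Slc3a2 and Slc7a5, whose products pair into a carrier of large neutral amino acids, at -0.11 ± 0.03 and -0.23 ± 0.06, Slc7a3 at -0.47 ± 0.15, Slc1a4 at -0.17 ± 0.07 and Slc7a1 at -0.06 ± 0.03 (log2, SE). Slc38a2 and Slc38a1, the most abundant transporters per length, stood at 0.01 ± 0.04 and -0.02 ± 0.03 (log2, SE). Of 8 genes of transsulfuration and glutathione 6 were negative and 0 passed, with the most abundant, Gsr and Gclc, at -0.02 ± 0.04 and 0.04 ± 0.05 (log2, SE).

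Of 20 tested regulators and outputs of the stress response 16 were negative and 0 passed, with a median log2 change of -0.07. There 5 were lower at an unadjusted p under 0.05: Atf5 at -0.21 ± 0.05, Jdp2 at -0.20 ± 0.06, Ddit3 at -0.17 ± 0.06, Ppp1r15b at -0.09 ± 0.04 and Xpot at -0.06 ± 0.03 (log2, SE; edgeR adjusted p of 0.547 or more). Atf5, Jdp2 and Ddit3 are transcription factors of the same leucine zipper class as ATF4, Ppp1r15b steers a phosphatase to eIF2, and Xpot carries tRNAs out of the nucleus. All 5 had negative changes in both lines, with the larger one in the PAS line. Vegfa and Sqstm1, the most abundant members per length, stood at 0.00 ± 0.06 and 0.01 ± 0.03 (log2, SE). Of 20 genes of eIF2 kinases and translation initiation 15 were negative and Eif2s2 was the one that fell.

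Of 31 p53 targets 23 had a positive change, 2 rose (Cdkn1a and Eda2r) and 0 fell, beside 49.4% positive over all genes, and the median log2 change was 0.03. At an unadjusted p under 0.05, 6 of the 31 were higher and 0 lower, beside 1.59% higher and 1.68% lower over all genes. The other 4 were Trp53inp1 at 0.16 ± 0.05, Ccng1 at 0.09 ± 0.03, Tnfrsf10b at 0.14 ± 0.05 and Btg2 at 0.08 ± 0.04 (log2, SE), each with an adjusted p of 1 (edgeR) and a positive change in both lines, a property of 13 of the 31 and of 23.6% of all genes. Trp53inp1 and Btg2 code for proteins that restrain proliferation, and Tnfrsf10b for a death receptor. The median of the p53 list was 0.04 for CDS and 0.00 for PAS.

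**Figure D4:**
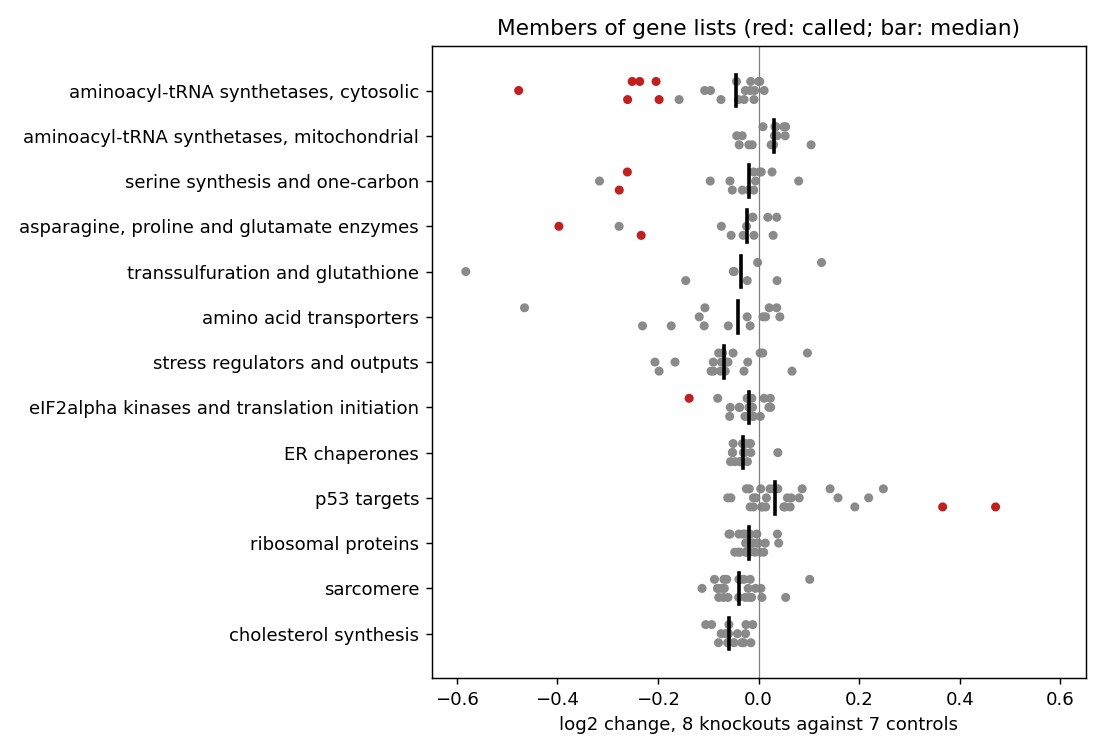
Log2 change over both lines of each tested member of 13 gene lists on the horizontal axis, with red points for called genes, grey points for the rest and a black bar for the list's median. The axis ends at 0.65 either way, which leaves 1 member outside (Lars2), and called members appear in 5 lists, below 0 in 4 of them and above 0 among the p53 targets.

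Of the 35 lists looked at, 30 held no called gene, and those counts are beside the background of 0.0740%. Endoplasmic reticulum chaperones had 16 of 17 members negative but a narrow range, with Calr and Hspa5 at -0.05 ± 0.04 and -0.04 ± 0.05 (log2, SE). Ribosomal proteins had 25 of 30 negative with a median of -0.02, sarcomere genes 21 of 25 with a median of -0.04, and nuclear respiratory chain genes 22 of 30 with a median of -0.01. Negative in both lines were 11 of the 17 chaperones and 14 of the 30 ribosomal proteins. The same held for 15 of the 25 sarcomere genes and 9 of the 30 respiratory chain genes, beside 24.8% of all genes. The respiratory chain median was -0.04 for CDS and 0.01 for PAS. Mitosis and DNA replication genes were evenly placed, with 7 of 18 and 9 of 18 negative. Core cardiac transcription factors had 7 of 15 negative (Gata4 0.02 ± 0.03, Nkx2-5 -0.05 ± 0.03, log2, SE), 3 of them in both lines. Trabecular markers had 8 of 9 negative (Nppa -0.02 ± 0.09, log2, SE), 3 of them in both lines. Compact layer and wall growth genes had 7 of 16 negative, and Igf2, a growth factor of that list, stood at 0.908 of control (log2 -0.14 ± 0.05, SE; edgeR adjusted p = 1).

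Markers of other cells were read in the same libraries, since ventricles are mixed tissue and fewer cells of a type cannot be told apart from less RNA per cell. All 12 erythroid genes were negative over both lines, with a summed level of 1700 to 4610 CPM in CDS knockouts, 1950 to 4290 in CDS controls, 1230 to 2420 in PAS knockouts and 1420 to 3710 in PAS controls. With that sum as a covariate, an alternative chosen after seeing the data, 16 genes passed, all 15 and Slc7a5. Of 8 tested liver and choroid plexus markers 6 were positive, and their sum was 43.6 to 242 CPM in CDS knockouts against 37.8 to 72.9 in CDS controls, 20 to 31 in PAS knockouts and 19.8 to 35.3 in PAS controls. The highest of these values come from CDS knockouts 3 and 4, and without that pair 11 genes passed, all among the 15. Mthfd2, Eda2r, Aldh18a1 and Eif2s2 then missed the threshold, at adjusted p of 0.0617, 0.0925, 0.265 and 0.0925 (edgeR), while their log2 changes were -0.23, 0.41, -0.21 and -0.14. Endothelial markers had 11 of 14 negative, with a summed level of 1960 to 2070 CPM in CDS knockouts, 2100 to 2190 in CDS controls, 2040 to 2140 in PAS knockouts and 1900 to 2200 in PAS controls, so every CDS knockout lay below every CDS control. Negative in both lines were 7 of the 12 erythroid genes and 3 of the 14 endothelial markers. The endothelial median log2 change was -0.08 for CDS and 0.02 for PAS. The part of any of these cell types in the 15 changes was not otherwise tested.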

How the data were processed

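RNA-seq counts of all 15 libraries were used, 1 file per library. Each deposited file gives unnormalised fragment counts that the authors made with featureCounts 2.1.1 over exons of GENCODE release 37 (GRCm39), per the file headers, with no strand option set. The submitters' processing notes list HISAT2 2.2.1 and STAR 2.7.11b without saying which was used. Of 78317 genes, 51487 were named by identifier from GENCODE release 21, and these hold 98.85% of counts. Genes were kept by filterByExpr (minimum count 10), libraries were scaled by TMM (factors 0.986 to 1.01), and edgeR 4.0.16 fitted line plus genotype by quasi-likelihood (12 residual degrees of freedom). Changes within each line and their difference came from 1 mean per group over all libraries (11 degrees of freedom). Standard errors come from the F statistic. The common biological coefficient of variation in edgeR was 7.47%, and counting limits low genes further.

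Named genes were Atf4, Rps19bp1 and Cacna1i, all called genes, those passing in 1 line alone, the 3 on each side of the threshold, and per described list its called or else its 2 most abundant members. List members with an unadjusted p under 0.05, other than these, were named after their values were seen. So were Got1, Atf3, Trib3, Slc7a11, Vldlr, Herpud1, Chac1 and Eif2s3x, for the motif in their promoters. Values of single genes of cholesterol synthesis are not reported here. The members, lists and tests were chosen with earlier results of these data known. The design text describes biological replicates. The counts of replicates within a group differed by more than sampling noise in all 21 pairs (chi-square per degree of freedom at least 3.38). The pipeline was tested on simulated data. Alternatives were other scaling, no filter, DESeq2 1.42.0, limma 3.58.1 (voom), averaged group means, a replicate block, each library left out and others given at the end.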

Additional observations from a re-analysis of the deposited data

Results flagged for a closer look

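The changes of Atf4 in the 2 lines differed, with a PAS minus CDS log2 change of 2.92 (edgeR, adjusted p = 3.88e-17). In 3 groups of 4 libraries 1 library stood far from the rest for a gene named above. 1810010H24Rik was at 3.5 CPM in CDS knockout 2 and at 2.94 to 2.97 CPM in the other 3. Mars was at 71.9 CPM in CDS control 1 and at 69.6 to 69.9 CPM in the others. Rps19bp1 was at 10.3 CPM in CDS knockout 4 and at 8.48 to 8.75 CPM in the others. In all, 54 groups were looked at, and chance marks about 1 in 20.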

How the results depend on the processing

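The 15 genes called over both lines became 15 with DESeq2-type size factors, 20 with DESeq2, 16 with limma-voom, with averaged group means, without robust dispersion and with the erythroid covariate, and 29 with no filter on low counts (11 higher, 18 lower), and all 15 were kept in each. With no filter 7 genes were still called in neither line, 2 of them the same. The 7 genes called in neither line by itself became 4 with DESeq2, of which 0 were among the 7, because DESeq2 called all 7 in the CDS line and Mars in the PAS line too. The count was 4 without CDS knockouts 3 and 4, and 3 at a threshold of 0.01. Leaving out 1 library gave 12 to 16 called genes and 4 to 8 called in neither line. The lowest counts, 12 and 4, came without CDS knockout 2 or CDS control 4, where Eif2s2, Aldh18a1 and Eda2r lost their call. The 15 called genes, Rps19bp1, Aamp, Aldh1l2 and Gars kept the direction of the change over both lines in all 24 settings. For Cacna1i and Rps19bp1 that direction is the one of the CDS line and not a shared one. Outside the CDS knockouts Cacna1i had at most 3 counts, too few for a fold. The PAS line gave 1 called gene when fitted alone, and the line difference 2 with DESeq2 (Atf4 and Rps19bp1).

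Same-numbered libraries of a line did not deviate together: correlations of their deviations from group means lay between -0.08 and 0.263 for CDS, and between -0.648 and 0.09 for PAS. With a replicate block, 10 genes passed, 9 of them among the 15, and 4 were called in neither line (1 of the 7). Nars, Pycr1, Mthfd2, Eda2r, Aldh18a1 and Eif2s2 missed the threshold, at adjusted p from 0.0584 to 0.506.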

Other observations

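Beyond the called genes, 9 genes were lower and 4 higher in every knockout than in every control of its line, in both lines, without passing the test (0.0937% and 0.0296% of genes tested, the called ones included). They were found by this property, so it is a description. Among those lower were Slc3a2, Aamp, which codes for a protein of endothelial migration, at log2 -0.13 ± 0.03, Plcl2 at -0.15 ± 0.04 and Gpsm3 at -0.31 ± 0.10, and among those higher was Cnn3, which codes for an actin-binding calponin, at 0.06 ± 0.02 (SE; edgeR adjusted p = 0.153 for Aamp and 1 for the other 3).

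All 17 genes of cholesterol synthesis had a negative log2 change over both lines, 14 of them in each line, beside 50.5% negative and 24.8% negative in both lines over all genes. None was called, and 0 had an unadjusted p under 0.05.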
